A study of Homo sapiens with 16 samples.

Results

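The proteasome subunit genes were followed in 8 human blood cell lines, each exposed to a pair of peptides, with 1 RNA-seq library per line and peptide. Gene symbols beginning with PSMA, PSMB, PSMC, PSMD, PSME, PSMF or PSMG and a digit were taken, leaving out PSMB8, PSMB9, pseudogenes and antisense genes, which gave 47 of the 23230 symbols counted. By role, 46 of them fell into 7 groups, comprising 7 genes of the alpha ring and 7 of the beta ring of the 20S core, 3 tissue-specific core subunits, 6 ATPases and 11 non-ATPase subunits of the 19S particle, 7 assembly chaperones, and 5 activators or inhibitors. The remaining symbol, PSMC3IP, encodes a partner protein of the ATPase PSMC3 that works in homologous recombination and is not a proteasome subunit. After the filter on low counts, 45 of the 47 genes were tested, all but PSMA8 and PSMB11.

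The proteasome is the protease that degrades proteins tagged with ubiquitin. Its core is a barrel of alpha and beta rings, in which PSMB5, PSMB6 and PSMB7 carry the cutting sites, and the 19S particle at either end recognises, unfolds and threads the substrate. In lymphoid and myeloid cells the inducible subunits PSMB8, PSMB9 and PSMB10 replace these cutting subunits to form the immunoproteasome, and the PSME1 and PSME2 ring is an alternative cap linked to antigen processing. The transcription factor NRF1, encoded by NFE2L1, drives many of these genes together when proteasome activity falls short, through antioxidant response elements in their promoters.

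The peptide Y518R binds DPY30, a shared subunit of the complexes that methylate histone H3 at lysine 4, and the control peptide 3R does not. MOLM13 and THP1 are labelled as MLL-AF9 leukemia, RS4-11 as MLL-AF4 leukemia and KOPN8 as MLL-ENL leukemia. No MLL fusion is labelled for the other 4 lines. K562 is a BCR-ABL leukemia, JURKAT a T cell leukemia described as dependent on Myc, RAJI comes from a Burkitt's lymphoma and P493-6 models that lymphoma. All cells were grown in the same medium with 2.5% serum. The labels state neither a peptide dose nor a time of exposure, and the comparison is with the control peptide, since no untreated library was analysed.

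Each line was a single culture per peptide as far as the labels go, so the lines served as the replicates and every value within a line stands alone. Library totals over genes lay between 19354300 and 43003124 counts. Reads assigned to no counted feature of a gene were 44.7% of the reads of RAJI with 3R and 17.7% to 26.9% of those of the other 15 libraries. The counts of members by order of lines are therefore also given without RAJI. Fitted changes without it are given only where stated. Levels below are CPM, read counts divided by library size after TMM scaling, and 3 counts corresponded to 0.0695 to 0.159 CPM. DPY30 itself lay between 25.8 and 53.8 CPM over the 16 libraries. HOXA9, a target of MLL fusions, was at 10.3 CPM or more in each library of the MLL-fusion lines and at 0.0360 CPM or less elsewhere, while the T cell gene CD3D was highest in JURKAT, the B cell gene CD79A in RS4-11, KOPN8, RAJI and P493-6, the myeloid gene LYZ in MOLM13 and THP1, and the erythroid gene GATA1 in K562.

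The promoters are shown first because the antioxidant response element is the sequence through which NRF1 acts on these genes. RefSeq sequences of GRCh38.p14, from 250 bases before to 50 bases after the annotated start, were matched for 41 of the 47 genes. The element's core, TGACNNNGC searched on both strands, was present in 12 of them (29.3%), against 13.6% of all 27305 promoters in the same table. It was found in 4 of 6 chaperone promoters and 3 of 5 activator or inhibitor promoters, but in 0 of 6 alpha ring promoters. The CCAAT box was in 46.3% of the members' promoters and 35.7% of all promoters, and the ETS core CCGGAAG in 34.1% and 10.7%. Each motif was counted on its own, overlaps included, and a match describes letters in the window only. Windows of 60 bases around the element, in capitals and written on the strand of the gene, are given for some of these genes. They are PSMB3 of the beta ring and the lid gene PSMD12, whose peptide ratios followed the other members, the chaperone PSMD5, which ran against them, and both subunits of the alternative cap. A link between the element and the ratios was not tested. The closest followers, PSMC5 and PSMA5, had no match. Of the 5 members whose ratios ran against the others, PSMD5 and PSMD1 had a match and PSMD11, PSMC3IP and PSMC1 had none.
PSMB3 (chr17:38752612-38752671, plus strand): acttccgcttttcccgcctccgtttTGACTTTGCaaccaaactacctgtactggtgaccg
PSMD12 (chr17:67366708-67366767, minus strand): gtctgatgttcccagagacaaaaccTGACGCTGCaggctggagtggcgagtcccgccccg
PSMD5 (chr9:120843022-120843081, minus strand): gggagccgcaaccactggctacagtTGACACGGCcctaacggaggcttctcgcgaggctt
PSME1 (chr14:24136083-24136142, plus strand): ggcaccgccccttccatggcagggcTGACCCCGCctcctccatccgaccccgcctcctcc
PSME2 (chr14:24146751-24146810, minus strand): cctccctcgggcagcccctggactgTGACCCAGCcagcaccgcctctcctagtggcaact

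Whether the DPY30-binding peptide changed proteasome genes across the lines was asked with each line paired to itself. No change of a member was detected. Of the 45 genes tested, 0 were called at an adjusted p under 0.05 (edgeR quasi-likelihood test, Benjamini-Hochberg over 13043 genes), where 0% of all genes were called, and 0 members had an unadjusted p under 0.05, where 3.02% of all genes did. The fitted log2 changes were small, from -0.099 for PSMG3 to 0.21 for PSMG4. They were above 0 for 33 members, with a median of 0.045, against 48.3% of all genes and a median of -0.0037. Without MOLM13 the members' median was 0.020 and 31 were above 0. No member was higher in all 8 lines, as were 0.161% of all genes, and none was lower in all 8, as were 0.330%.

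**Figure D1:**
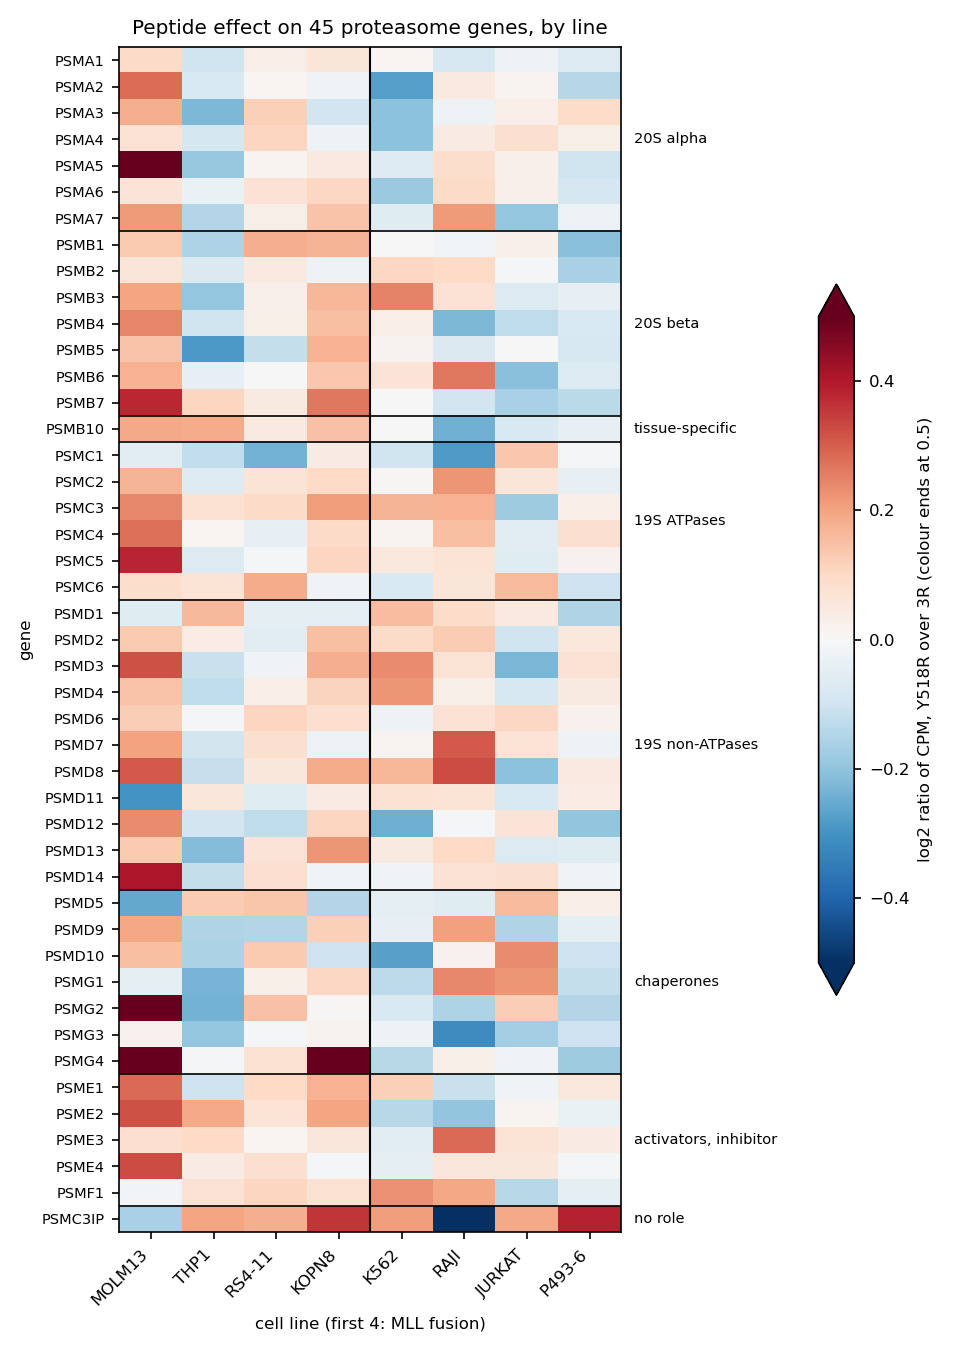
Log2 ratio of CPM, Y518R over 3R, for the 45 tested genes (rows, grouped by role) in 8 lines (columns, MLL-fusion lines left of the vertical line), with colour ending at 0.5 in either direction. The MOLM13 column is mostly red and the THP1 column mostly blue, and PSMG4 reaches the red end in MOLM13 and KOPN8.

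Within the 20S core, the rings that form the barrel were near 0. The alpha ring had 4 of 7 genes above 0 with a median log2 change of 0.0014, and the beta ring 5 of 7 with a median of 0.018. PSMA5, an alpha ring subunit, had the largest and lowest-p change of its ring. Its level with 3R was 136 CPM in MOLM13, 220 in THP1, 135 in RS4-11, 151 in KOPN8, 342 in K562, 208 in RAJI, 209 in JURKAT and 185 in P493-6. With Y518R it was 212, 193, 136, 156, 326, 221, 212 and 172 CPM in the same order. The MOLM13 pair differed by 0.63 on the log2 scale and the other 7 pairs by -0.19 to 0.087, so the fitted change of 0.054 ± 0.074 (SE, n = 8 lines, edgeR adjusted p = 0.999) turned to -0.023 without MOLM13.

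PSMB3, a structural beta subunit, had the largest change of the beta ring. It measured 130 CPM in MOLM13, 183 in THP1, 143 in RS4-11, 111 in KOPN8, 168 in K562, 134 in RAJI, 163 in JURKAT and 99.1 in P493-6 with 3R. With Y518R the same lines gave 150, 160, 145, 125, 200, 141, 155 and 96.3 CPM, higher in 5 lines and lower in THP1, JURKAT and P493-6. The fitted log2 change was 0.051 ± 0.056 (SE, edgeR adjusted p = 0.999).

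Of the cutting subunits, none passed the test. PSMB5, the chymotrypsin-like subunit and the target of bortezomib, measured 83.3 CPM in MOLM13, 121 in THP1, 122 in RS4-11, 73.0 in KOPN8, 186 in K562, 152 in RAJI, 86.8 in JURKAT and 131 in P493-6 with 3R. With Y518R the values were 91.9, 99.1, 113, 82.2, 188, 144, 86.6 and 124 CPM. It was higher in 3 lines and lower in 5, with a fitted log2 change of -0.030 ± 0.056 (SE, edgeR adjusted p = 0.999), which was 0.0063 without THP1.

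PSMB6, the caspase-like subunit, measured 92.5 CPM in MOLM13, 61.8 in THP1, 107 in RS4-11, 85.1 in KOPN8, 88.9 in K562, 77.6 in RAJI, 106 in JURKAT and 61.5 in P493-6 with 3R. With Y518R it measured 104, 60.04, 107, 93.5, 92.9, 93.3, 92.1 and 58.7 CPM. RAJI had the widest step up, 0.27 on the log2 scale, and JURKAT the widest step down, -0.21, and the fit gave 0.039 ± 0.058 (SE, edgeR adjusted p = 0.999). PSMB7, the trypsin-like subunit, is described with the MLL-fusion lines below.

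Among the 19S genes, 5 of 6 ATPases and 9 of 11 non-ATPase subunits were above 0, with median log2 changes of 0.063 and 0.054. PSMC3, an ATPase of the base ring that pulls substrates into the core, had the lowest p of all members. It measured 170 CPM in MOLM13, 259 in THP1, 157 in RS4-11, 180 in KOPN8, 235 in K562, 142 in RAJI, 243 in JURKAT and 93.8 in P493-6 with 3R. With Y518R it was 200, 273, 167, 208, 264, 160, 215 and 96.1 CPM. The pair was higher with Y518R in 7 of 8 lines, all but JURKAT, and the log2 change of 0.10 ± 0.053 (SE) had an adjusted p of 0.999 in edgeR.

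PSMD8, a lid subunit, had the largest change of the non-ATPase group, 0.096 ± 0.062 (SE, edgeR adjusted p = 0.999). Its 3R levels were 177 CPM in MOLM13, 192 in THP1, 179 in RS4-11, 150 in KOPN8, 238 in K562, 159 in RAJI, 199 in JURKAT and 127 in P493-6. The Y518R levels were 219, 177, 186, 171, 267, 199, 173 and 131 CPM, higher in 6 lines and lower in THP1 and JURKAT.

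The assembly chaperones, which escort unfinished rings and are not in the finished particle, were split. They had 3 of 7 genes above 0, a median log2 change of -0.0020 and both extremes of the whole set. PSMG3 measured 62.5 CPM in MOLM13, 37.2 in THP1, 13.5 in RS4-11, 29.7 in KOPN8, 54.8 in K562, 59.7 in RAJI, 56.1 in JURKAT and 42.5 in P493-6 with 3R. With Y518R it was 63.4, 32.5, 13.4, 30.01, 53.8, 48.0, 49.7 and 39.5 CPM. It was lower in 6 lines, among them the 4 without an MLL fusion, where 1 member and 6.06% of all genes were lower in every line. Its log2 change over 8 lines was -0.099 ± 0.062 (SE, edgeR adjusted p = 0.999).

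All 5 activators and inhibitors were above 0, with a median of 0.060 and a range of 0.053 to 0.073. PSME3, the nuclear activator ring, was higher in 7 of 8 lines, with 3R levels of 178 CPM in MOLM13, 185 in THP1, 192 in RS4-11, 216 in KOPN8, 340.0 in K562, 246 in RAJI, 192 in JURKAT and 198 in P493-6. Its Y518R levels were 189, 198, 193, 225, 327, 299, 201 and 204 CPM, K562 being the exception. The change of 0.073 ± 0.048 (SE, edgeR adjusted p = 0.999) had its widest step, 0.28, in RAJI, whose 3R library had the 44.7% of unassigned reads noted above.

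PSME4, the large single-chain activator known from histone turnover, measured 69.0 CPM in MOLM13, 157 in THP1, 142 in RS4-11, 130 in KOPN8, 235 in K562, 236 in RAJI, 101 in JURKAT and 237 in P493-6 with 3R. With Y518R it measured 86.4, 162, 151, 129, 228, 245, 106 and 235 CPM. MOLM13 stepped up by 0.32 on the log2 scale and no other line by more than 0.084.

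PSMC3IP, the recombination factor, measured 6.86 CPM in MOLM13, 11.2 in THP1, 10.3 in RS4-11, 10.9 in KOPN8, 15.8 in K562, 11.9 in RAJI, 15.5 in JURKAT and 5.76 in P493-6 with 3R. With Y518R it measured 6.12, 12.9, 11.7, 14.02, 18.3, 7.41, 17.6 and 7.54 CPM, higher in 6 lines and lower in MOLM13 and RAJI. The steps ran from -0.67 in RAJI to 0.38 in P493-6 on the log2 scale, and the fit gave 0.098 ± 0.12 (SE, edgeR adjusted p = 0.999). The step in RAJI rests on its 3R library with 44.7% of unassigned reads.

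The classes of line were then fitted separately. In the 4 MLL-fusion lines 0 of 45 members were called, against 0% of all genes, and 38 were above 0 with a median log2 change of 0.063, against 49.9% of all genes and a median of -0.0004. Without MOLM13 the median was 0.025 with 31 members above 0. In the other 4 lines 0 members were called, against 0% of all genes, and 0 had an unadjusted p under 0.05, against 1.55%. In these lines 25 members were above 0 with a median of 0.0085, against 48.1% of all genes. That median was -0.013 without RAJI. The alpha ring had 6 of 7 genes above 0 in the MLL-fusion lines and 0 of 7 in the others, with medians of 0.049 and -0.027, and none of the 7 had an unadjusted p under 0.05 for the class difference. Single lines did not follow the class, since 0 of 7 were above 0 in THP1, 7 of 7 in MOLM13 and RS4-11, 5 of 7 in RAJI and JURKAT and 1 of 7 in K562. By line, 44.6% (RAJI) to 53.85% (K562) of all genes were above 0.

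**Figure D2:**
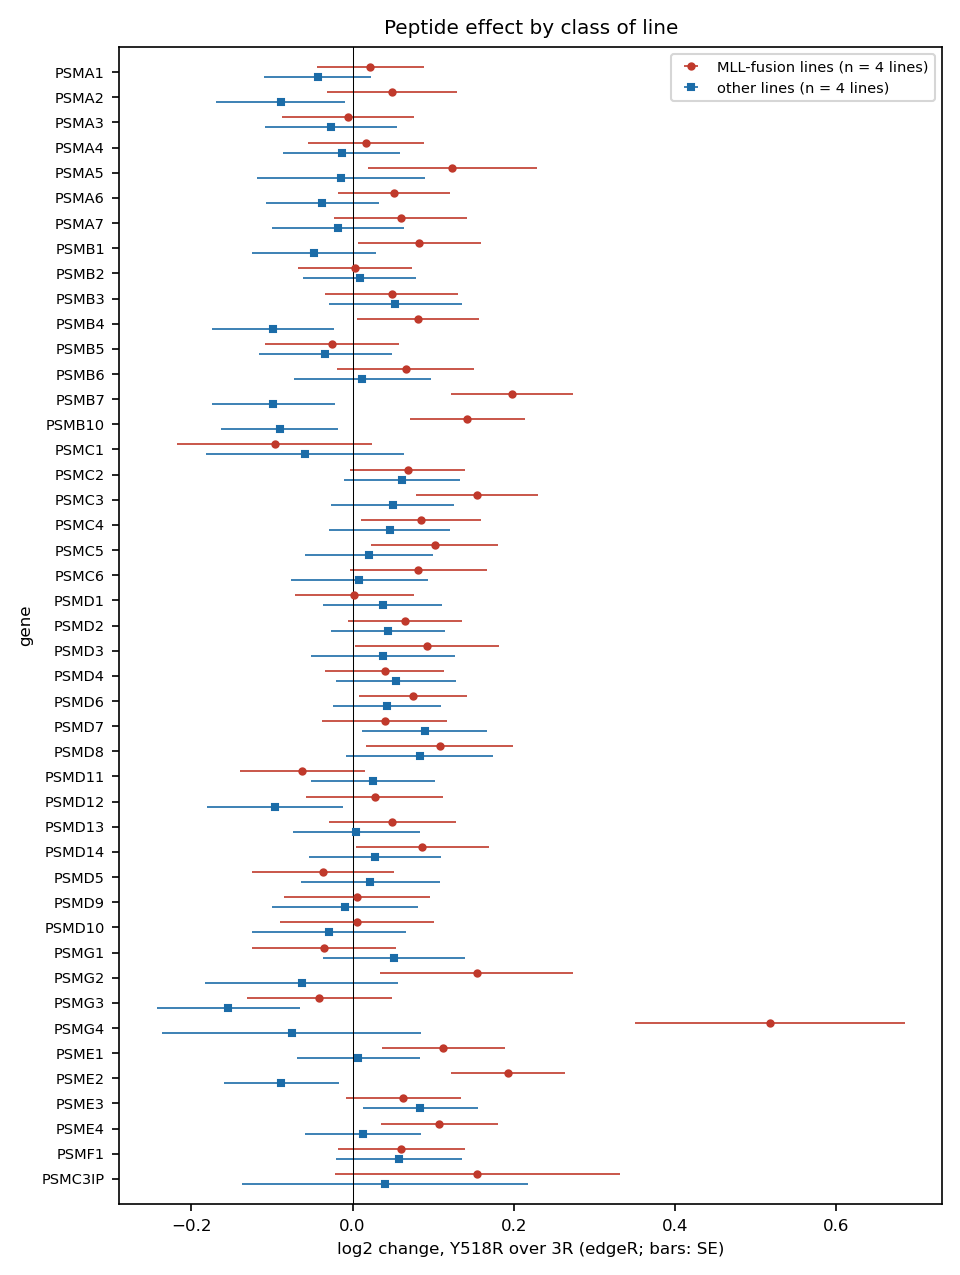
Fitted log2 change, Y518R over 3R, of each tested gene in the 4 MLL-fusion lines (circles) and the 4 other lines (squares), with bars of 1 SE from edgeR. Most intervals of the classes overlap, and PSMG4, PSME2, PSMB7 and PSMB10 have circles to the right of their squares by more than both bars.

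At an unadjusted p under 0.05, 3 members were higher in the MLL-fusion lines and none lower, where 2.97% of all genes were higher and 2.87% lower. They were a chaperone, a cap subunit and a cutting subunit, and none passed adjustment. PSMG4, a chaperone of alpha ring assembly, measured 15.8, 5.50, 17.4 and 8.89 CPM with 3R across MOLM13, THP1, RS4-11 and KOPN8. With Y518R it was 31.4, 5.48, 18.4 and 17.3 CPM. The single pairs of MOLM13 and KOPN8 differed by 0.99 and 0.96 on the log2 scale, whereas THP1 and RS4-11 differed by -0.0051 and 0.075. The fitted change of 0.52 ± 0.17 (SE, edgeR adjusted p = 0.840) was 0.35 without MOLM13 and 0.37 without KOPN8.

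In the other lines PSMG4 lay at 33.7 CPM in K562, 30.3 in RAJI, 17.4 in JURKAT and 18.1 in P493-6 with 3R, and at 30.6, 31.0, 17.2 and 16.04 CPM with Y518R. These pairs differed by -0.18 to 0.030 on the log2 scale. PSMG4 was among the least abundant members, so its ratios rest on fewer reads than those of the ring subunits.

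PSME2, a subunit of the alternative cap, measured 127, 167, 172 and 180 CPM with 3R across the 4 lines in the same order, and 159, 191, 180 and 206 CPM with Y518R. All 4 pairs were higher with Y518R, by 0.067 to 0.32 on the log2 scale (fit 0.19 ± 0.071, SE, edgeR adjusted p = 0.840). In K562, RAJI, JURKAT and P493-6 it measured 77.9, 283, 107 and 128 CPM with 3R and 70.7, 247, 108 and 125 CPM with Y518R, higher in JURKAT only.

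PSMB7, the trypsin-like cutting subunit, measured 77.9, 70.7, 88.8 and 86.6 CPM with 3R across the same lines, and 101, 76.1, 91.6 and 104 CPM with Y518R. All 4 pairs were higher with Y518R (fit 0.20 ± 0.076, SE, edgeR adjusted p = 0.840). The other lines gave 152 CPM in K562, 92.2 in RAJI, 137 in JURKAT and 121 in P493-6 with 3R, and 152, 86.3, 122 and 110 CPM with Y518R, lower in 3 of 4.

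PSMB10, the inducible counterpart of PSMB7, had the same direction, without passing the test. Across the MLL-fusion lines it measured 110, 157, 115 and 130 CPM with 3R and 126, 179, 119 and 144 CPM with Y518R (fit 0.14 ± 0.071, SE, edgeR adjusted p = 0.840). In K562, RAJI, JURKAT and P493-6 it gave 31.6, 116, 54.2 and 73.3 CPM with 3R and 31.7, 98.5, 51.4 and 71.2 CPM with Y518R. Members higher in all 4 MLL-fusion lines numbered 5, namely PSMB7, PSMB10, PSMC3, PSME2 and PSME3, where 6.58% of all genes were.

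The difference of the peptide effect between the classes was tested directly. It was called for 0 members, against 0% of all genes, and was above 0 for 35 members, against 52.2%. At an unadjusted p under 0.05 it was higher in the MLL-fusion lines for 4 members and lower for none, where 2.06% of all genes were higher and 1.73% lower. The differences in log2 change were 0.59 ± 0.23 for PSMG4, 0.30 ± 0.11 for PSMB7, 0.28 ± 0.10 for PSME2 and 0.23 ± 0.10 for PSMB10 (SE, edgeR adjusted p = 0.999 for each).

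**Figure D3:**
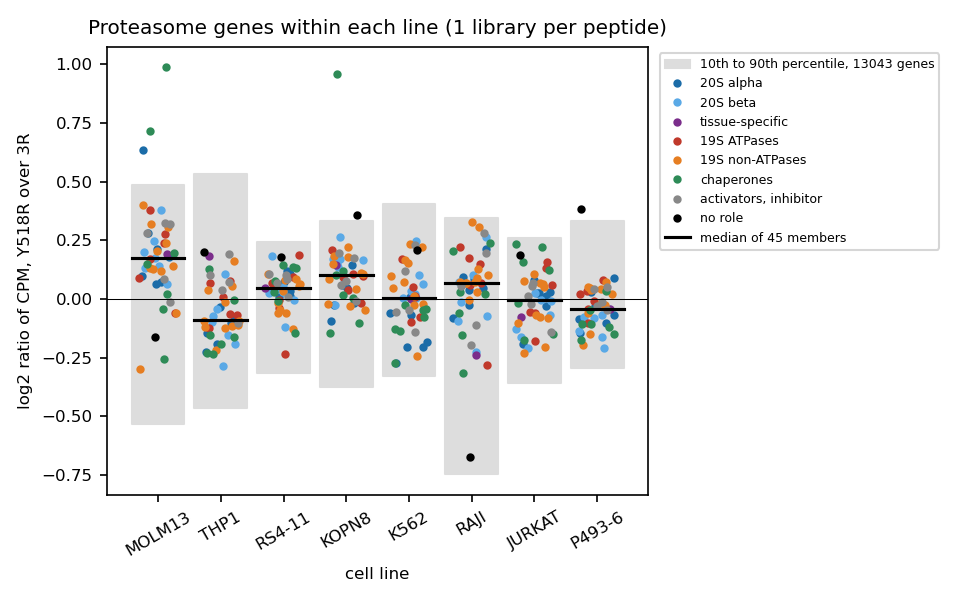
Log2 ratio of CPM, Y518R over 3R, of the 45 tested genes in each line, coloured by role, with the members' median as a bar and the 10th to 90th percentile of all 13043 genes in grey. Most members lie inside the grey band of their line, and their medians run from -0.089 in THP1 to 0.17 in MOLM13.

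The members' median ratio differed from line to line, each line having 1 library per peptide and no test. In MOLM13, 38 of 45 were above 0 with a median log2 ratio of 0.17, and in KOPN8 34 with 0.10. RAJI had 30 above 0 (median 0.069), RS4-11 33 (0.048), K562 24 (0.0021), JURKAT 22 (-0.0034), P493-6 15 (-0.042) and THP1 14 (-0.089). The medians of all genes after scaling lay between -0.017 and 0.022, and 44.6% (RAJI) to 53.85% (K562) of all genes were above 0. MOLM13 and THP1, both labelled MLL-AF9, went opposite ways for 29 members that were higher in MOLM13 and lower in THP1, as were 26.4% of all genes. The reverse held for 5 members, and its share over all genes was not computed.

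All 7 alpha ring and all 7 beta ring genes were above 0 in MOLM13, and in THP1 0 and 1 of them were. Of all genes, 48.2% were above 0 in MOLM13 and 49.7% in THP1. Single steps were nonetheless small. Only 5 of 360 pairs of member and line passed an absolute log2 ratio of 0.5, where 15.1% of all pairs of gene and line did, and none passed 1. They were PSMA5 (0.63), the chaperone PSMG2 (0.72) and PSMG4 (0.99) in MOLM13, PSMG4 (0.96) in KOPN8 and PSMC3IP (-0.67) in RAJI. The summed CPM of all members changed by 0.035 ± 0.081 on the log2 scale (mean and SD, n = 8 lines).

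Members also varied together from line to line. The median Pearson correlation of their log2 ratios over the 8 lines was 0.32 across 990 pairs of members, against 0.0035 over all pairs of genes, and 0.46 within the 20S rings, 0.28 within the 19S genes and 0.42 between them. The ratios of a line share its 2 libraries and their scaling, and without MOLM13 the median over members was 0.16. With the mean ratio of the 31 core and 19S genes, a gene's own ratio left out, 30 members correlated above 0.5, as did 18.8% of all genes, led by the ATPase PSMC5 (0.91) and PSMA5 (0.87). The chaperone PSMD5 (-0.87), the lid subunit PSMD11 (-0.65), PSMC3IP (-0.45), the scaffold PSMD1 (-0.36) and the ATPase PSMC1 (-0.17) correlated below 0, as did 51.7% of all genes.

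PSMD5, which holds base ATPases before the core is joined, gave the mirror image. With 3R it measured 65.1 CPM in MOLM13, 34.8 in THP1, 22.8 in RS4-11, 68.7 in KOPN8, 192 in K562, 65.6 in RAJI, 54.7 in JURKAT and 58.0 in P493-6. With Y518R it was 54.5, 38.0, 25.1, 62.2, 186, 62.9, 61.1 and 59.4 CPM, lowest relative to 3R in MOLM13 (-0.26) and KOPN8 (-0.15), the lines with the highest member medians. PSMD11 went from 60.9 CPM with 3R to 49.5 with Y518R in MOLM13, a single pair with no test, and differed by -0.076 to 0.074 on the log2 scale elsewhere.

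**Figure D4:**
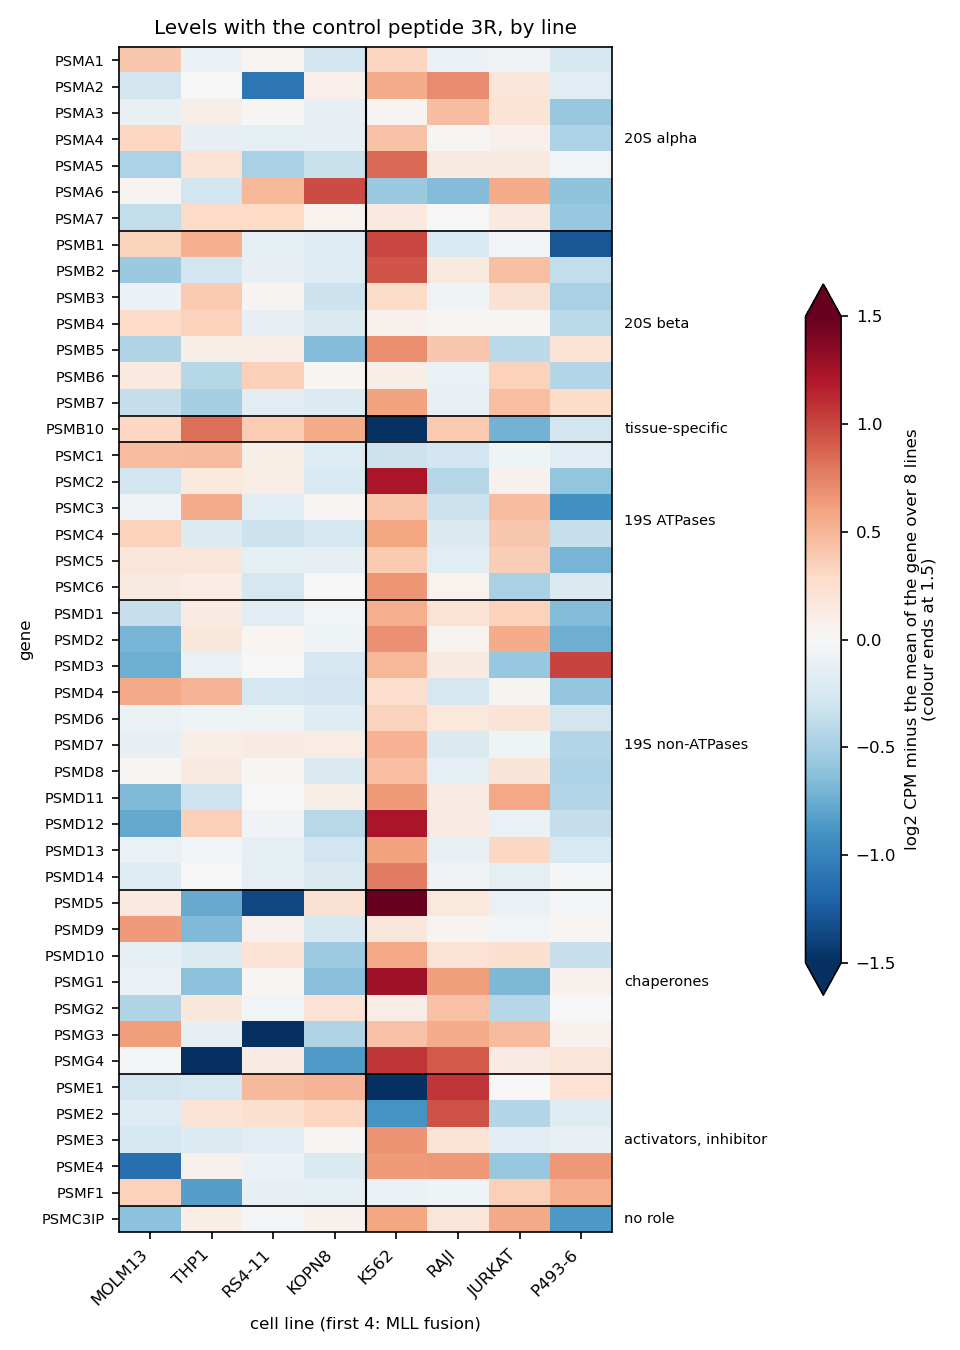
Level of the 45 tested genes with the control peptide 3R, as log2 CPM minus the mean of the gene over the 8 lines, with colour ending at 1.5 in either direction. The K562 column is red for most ring and 19S genes and blue for PSMB10, PSME1 and PSME2, and the P493-6 column is mostly blue.

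Levels differed from line to line. All 45 members differed among the 8 lines (edgeR F test over the line terms, adjusted p under 0.05), as did 98.3% of all genes. The median SD of log2 CPM with 3R was 0.41 for the members, against 0.78 for all genes and 0.57 for the 7758 genes at or above the level of the lowest member with a role. PSMD6, a lid subunit, was the most even, from 101 CPM in P493-6 to 155 in K562 (SD 0.21), followed by PSMA1 from 192 in KOPN8 to 308 in MOLM13 (0.25) and PSMB4 from 182 in P493-6 to 305 in THP1 (0.25).

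The widest members were not ring subunits. PSMD5 had an SD of 0.88 and an 8.40-fold range from RS4-11 to K562, and PSMG4 an SD of 0.85 and a 6.06-fold range from THP1 to K562. PSME1, the partner of PSME2 in the cap, followed with an SD of 0.83 and a 6.98-fold range from K562 to RAJI. PSMB10 ranged 4.96-fold from K562 to THP1 and PSMG3 4.62-fold from RS4-11 to MOLM13. By role the median SD was 0.68 for chaperones and 0.56 for activators, against 0.31 for the alpha ring, 0.40 for the beta ring, 0.37 for the ATPases and 0.39 for the non-ATPase subunits.

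K562 stood at the top. Summed over all members its level was 8796 CPM with 3R and 8855 with Y518R, while the other 7 lines with 3R ran from 5454 CPM in P493-6 over 5961 in MOLM13, 6129 in KOPN8, 6217 in RS4-11, 6607 in THP1 and 6891 in JURKAT to 6930 in RAJI. Their sums with Y518R were 5356, 6806, 6537, 6403, 6345, 6752 and 7196 CPM in that order. The 3R sum in K562 was 1.41 times the median of the other lines. Both K562 libraries exceeded all 14 others for 19 of 45 members, where 12.2% of all genes did, and without RAJI for 20. These were 9 of 11 non-ATPase subunits, 4 of 7 beta ring genes, 2 of 6 ATPases, 2 of 7 chaperones, 1 alpha ring gene and PSME3.

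The immunoproteasome side was the opposite in K562. Both of its libraries lay below all 14 others for PSMB10, PSME1 and PSME2. These were 3 of 45 members, a smaller share than the 11.5% of all genes. Without RAJI there were 4 such members, the added one being the ATPase PSMC1, which is neither an inducible nor an alternative cap subunit. PSMC1 was at 13.0 CPM with 3R and 12.1 CPM with Y518R in K562, and at 14.3 CPM or more in the other lines except RAJI. PSME1 measured 54.2 CPM in K562, 149 in MOLM13, 151 in THP1, 253 in RS4-11, 257 in KOPN8, 379 in RAJI, 181 in JURKAT and 210 in P493-6 with 3R. With Y518R it was 58.9 CPM in K562 and 181, 140, 271, 289, 351, 178 and 217 CPM in the others in that order. PSMB8 and PSMB9, the inducible cutting subunits left out of the set, had 33 and 20 counts in K562 with 3R (1.43 and 0.864 CPM) and 44 and 12 with Y518R (1.46 and 0.399 CPM). In every other library PSMB8 was at 103 CPM or more and PSMB9 at 28.4 CPM or more.

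**Figure D5:**
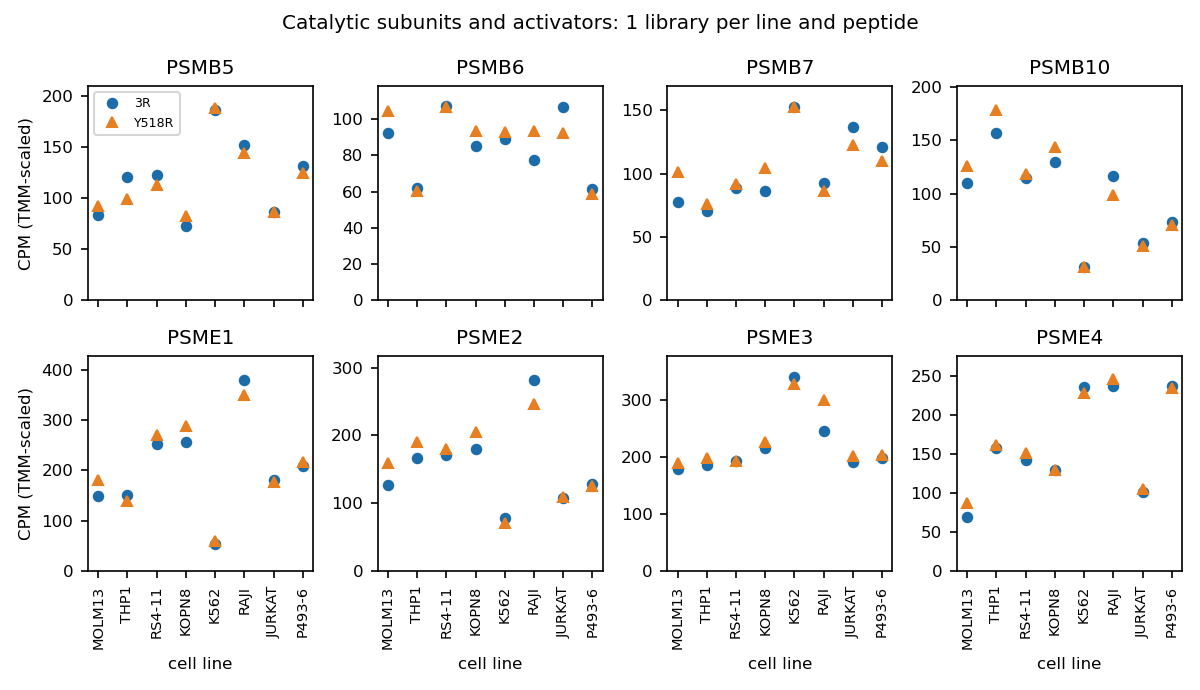
Level in CPM of 4 core subunits (upper row) and 4 activators (lower row) in each line, with 1 library per point (circle 3R, triangle Y518R) and axes from 0. K562 is highest for PSMB5, PSMB7 and PSME3 and lowest for PSMB10, PSME1 and PSME2 in both of its libraries.

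P493-6 stood at the bottom. Both of its libraries were below all 14 others for 14 of 45 members, where 8.66% of all genes were, and for 14 also without RAJI. They comprised 3 alpha ring genes, 3 beta ring genes, 3 ATPases and 5 non-ATPase subunits, and none of the chaperones or activators. Of the 45 members, 3 had their highest 3R level in P493-6, where 13.5% of all genes did. They were the lid subunit PSMD3, PSMF1 and, by a narrow margin, PSME4 (236.5 CPM, against 236.05 in RAJI).

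Levels in the 3R libraries were also compared between the classes, which cannot be told apart from lineage here. Of 45 members 0 were called, against 0.0534% of all genes. The log2 difference, MLL-fusion minus other, was above 0 for 12 members with a median of -0.26, against 49.2% of all genes and a median of -0.013. At an unadjusted p under 0.05, 2 of 45 differed, against 10.1% of all genes. PSMB7 was at 81.0 ± 8.35 CPM in the MLL-fusion lines and 126 ± 25.6 in the others (mean and SD, n = 4 lines each), a log2 difference of -0.64 ± 0.23 (SE, edgeR adjusted p = 0.432). PSMB10 was at 128 ± 21.2 and 68.8 ± 35.9 CPM, a difference of 0.89 ± 0.39 (SE, edgeR adjusted p = 0.489). All 7 chaperones were below 0, with a median of -0.59.

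Levels were alike among most, though not all, of the core and 19S genes. The median correlation of 3R levels over the 8 lines was 0.57 within the 19S genes, 0.29 within the 20S rings and 0.44 between them, against -0.0002 over all pairs of genes. Over all members it was 0.28, and 0.12 without K562. PSMD8 (0.93), PSMD13 (0.90), PSMC2 (0.90) and PSMD1 (0.90) followed the mean of the other ring and 19S genes most closely, while PSME1 (-0.72), PSMB10 (-0.60), PSME2 (-0.49) and PSMF1 (-0.35) ran against it and the chaperones PSMD9 (-0.044) and PSMG2 (0.054) were near 0. Among the core and 19S genes themselves, PSMC1 (-0.23), PSMA6 (-0.21) and PSMD3 (-0.17) also correlated below 0 with that mean. In all, 8 of the 45 members did so, and the share over all genes was not computed.

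Besides PSMB10, the tissue-specific core subunits PSMB11 and PSMA8 had few or no counts in most libraries. PSMB11, the thymus subunit, had 0 counts in every library, which allows up to 0.0695 to 0.159 CPM depending on the library. PSMA8, the alpha subunit of the testis, had 396 counts (9.70 CPM) with 3R and 297 (11.0 CPM) with Y518R in JURKAT. Elsewhere it had at most 6 counts, in the RAJI Y518R library, and 0 counts in all libraries of 5 lines.

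Between genes, levels were compared per kilobase of transcript, using GENCODE v29 lengths (the median of the principal transcripts), because no source used here names the annotation behind the counts. The median over the 3R libraries was 147 CPM per kilobase for the alpha ring, 102 for the beta ring, 54.8 for the ATPases, 81.5 for the non-ATPase subunits, 105 for the activators and 34.3 for the chaperones. PSMA7 was the highest member at 274 CPM per kilobase and PSMB4 next at 254. The inducible PSMB10 and the PSMB7 that it replaces both had a median of 92.4 CPM per kilobase but ran opposite ways over the lines. PSMB10 went from 25.97 in K562 to 129 in THP1, and PSMB7 from 72.1 in THP1 to 155 in K562. Of the exon bases of PSMB10, 30.7% are shared with the annotated gene AC040162.1.

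PSMC1, an ATPase of the same hexamer as PSMC3, was at 3.41 CPM per kilobase, against 112 for PSMC3. The lengths used were 4448 bases for PSMC1 and 1562 for PSMC3, and before division by length their 3R medians were 15.2 and 175 CPM. PSMC1 has 13 pseudogenes under its name in GENCODE v29, and 82.1% of its exon bases there are shared with NRDE2, a neighbour. Reads of PSMC1 could therefore be split or set aside as ambiguous, and its level is uncertain. Shared bases, here and for the other members, were counted whatever the strand. In all 16 libraries PSMC1 lay between 10.9 and 22.7 CPM. PSMA6, PSMA2, PSMA1, PSMC3IP and PSMD7 share 50.4% to 81.0% of their exon bases with other annotated genes, and 12 members have named pseudogenes, so their levels carry the same limit.

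Genes that act with the proteasome were taken from 5 lists. None of their members was called over the 8 lines, where 0% of all genes were called and 48.3% were above 0. In the NRF1 pathway 2 of 10 genes tested were above 0, with a median log2 change of -0.027. The lowest p there was that of MAFG, a small MAF partner of NRF1, at -0.19 ± 0.065 (SE, lower in 6 of 8 lines, edgeR adjusted p = 0.999). In the MLL-fusion lines it was lower in 4 of 4, by -0.31 ± 0.082 (SE, edgeR adjusted p = 0.840). The share of all genes lower in all 4 is not given here.

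Of 13 cofactors and assembly factors with other names 6 were above 0, the lowest p being that of ZFAND2A, an arsenite-inducible proteasome partner (-0.20, edgeR adjusted p = 0.999). Of 5 shuttle receptors 2 were above 0, with UBQLN1 at -0.057, and of 5 ubiquitin and activating enzyme genes 4 were, with the activating enzyme UBA1 at 0.098. PSMB8 and PSMB9 were both above 0 over the 8 lines. In the MLL-fusion lines they were higher in 4 of 4, by 0.17 ± 0.066 for PSMB8 and 0.29 ± 0.098 for PSMB9 (SE, edgeR adjusted p = 0.840 for each). PSMB10 and PSME2 were also higher in 4 of 4, as were 6.58% of all genes, whereas PSME1 was higher in 3 of 4. In the other lines PSMB8 and PSMB9 were both below 0, with fitted log2 changes from -0.10 to -0.041.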

How the data were processed

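Poly(A)-selected RNA of 16 libraries was sequenced, per the labels' protocols. The deposited files hold whole-number read counts per gene symbol. TopHat2 2.1.1 and HTSeq 0.6.1 are named in the submitters' processing notes, which list both GRCh38 and hg19; no source used here states the annotation or the strand setting. Rows for reads not assigned to a gene (17.7% to 44.7% no feature) were left out of library sizes. Genes passing filterByExpr at a minimum count of 10 were tested with edgeR 4.0.16 (R 4.3.3), using TMM scaling, glmQLFit and glmQLFTest, with the cell line as a block and Benjamini-Hochberg adjustment over all genes tested. Fits over classes used all 16 libraries. Class levels used the 3R libraries without a block. Log2 ratios within a line used a prior count of 2.

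Replicate numbers stand for the cell line: the 2 libraries of a line correlated at 0.988 to 0.997 (Spearman), against at most 0.884 between lines. With 1 library per line and peptide, p-values of the peptide and class comparisons measure the spread between lines. Those of the F test among lines rest on the spread between the 2 peptide libraries of a line, which are not repeat cultures. Scripts were tested on simulated counts.

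Values in every line are given for the member of lowest p and of largest change in each role group, any called member, the catalytic, tissue-specific and activator genes, and symbols without a role. Levels are given for the 5 members of widest and 3 of narrowest spread, and each pathway list contributes its gene of lowest p. Any further gene was named with its values in view. The members and lists were chosen with earlier results of these data known. Alternatives were RLE scaling, no filter, DESeq2 1.42.0, limma-voom (limma 3.58.1), no block and leaving out each line. The order of lines without RAJI was added after seeing the data.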

Additional observations from a re-analysis of the deposited data

Results flagged for a closer look

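A gap test over the 8 lines picked out 16 of 94 sets of values, in which 1 line stood apart from the rest. For independent sets of normal values about 1 in 20 would be picked. These sets share libraries and scaling and vary together, so the count of 16 cannot be set against that rate. The gap test was run only on the members and their sums, so its share over all genes was not computed. MOLM13 stood apart in the log2 ratio of Y518R over 3R for 6 members, being highest for PSMA5 (0.634, next line 0.0868), PSMC5 (0.380, next 0.106), PSMD14 (0.402, next 0.0859), PSME4 (0.325, next 0.0835) and the chaperone PSMG2 (0.717, next 0.146), and lowest for PSMD11 (-0.299, next -0.0762). RAJI was highest for PSME3 (0.283, next 0.101). These rest on 1 library per peptide.

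K562 stood apart as the highest line in 3R level for 7 members. They were PSMA5 at 342 CPM (next line 220.1), the ATPases PSMC2 at 336 CPM (next 158) and PSMC6 at 75.7 CPM (next 52.4), the lid subunits PSMD12 at 210.1 CPM (next 115) and PSMD14 at 277 CPM (next 160.2), the chaperone PSMD5 at 192 CPM (next 68.7) and the activator PSME3 at 340.0 CPM (next 246). Its summed level of all members, 8796 CPM, stood apart as well (next 6930). By any margin, K562 had the highest 3R level for 25 of 45 members and for 16.2% of all genes. JURKAT stood apart for PSMA8, at 9.70 CPM (next 0.0531).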

How the results depend on the processing

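The count of members called stayed at 0 in the peptide comparisons, the class difference and the 3R class comparison under every alternative run, and at 45 of 45 among lines in those run. Over all genes the count called over 8 lines moved from 0 to 3 without the filter and 1 with limma-voom. For the MLL-fusion lines it was 52 without the filter, 1 with DESeq2, 20 with limma-voom and 0 to 3 leaving out single lines. For the other lines it was 1 without the filter and 2 with limma-voom. For the class difference it was 9 without the filter, 2 with DESeq2, 2 with limma-voom and 0 to 1 leaving out single lines. For 3R levels between classes it moved from 7 to 477 with DESeq2, 4 in the Y518R libraries and 4 to 11 leaving out single lines. Without the replicate block the count over 8 lines stayed at 0, and the members' median was 0.036; for the other lines it was -0.0014. PSMA5 ranged from -0.023 to 0.089 leaving out single lines, and PSMB5 from -0.056 to 0.0063 and was 0.019 without RAJI and THP1; the cause was not tested. The peptide was given to 1 library per line, so a change within a line has no error.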
